A study of Homo sapiens with 73 samples.

Results

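Parallel cultures of CHLA-9, an established line of Ewing sarcoma cells, were passed through repeated chemotherapy. The state described here is that of 2 late treated libraries, lineage R1 at time point 9 (R1 T9) and lineage R2 at time point 10 (R2 T10), among 73 libraries in all. They were set against the 4 other treated libraries of time points 9 and 10, R4 T9, R5 T9, R5 T10 and R6 T10, which come from only 3 lineages because R5 was sampled at both. The pair was chosen by the late expression values themselves, in which it had stood apart, led by EPB41L3, GPRC5A and FN1, so every late difference below is a description without a test.

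Treated lineages R1 to R7 (49 libraries) received VDC and EC in turn. VDC combines vincristine, doxorubicin and cyclophosphamide, EC combines etoposide with cyclophosphamide, and each was given for 5 days at the EC70. RNA was taken after each culture had regrown without drug to near confluency. R1 T9, R4 T9 and R5 T9 therefore followed VDC, and R2 T10, R5 T10 and R6 T10 followed EC. Lineages R8 to R10 (23 libraries) received the solvent DMSO on the same calendar, and 1 library came from the untreated parental line. All groups are CHLA-9 and carry its EWSR1-FLI1 fusion. Earlier treated libraries, from time points 1 to 8, numbered 43, of which R1 T7 and R2 T8 were the last of their lineages. The experiment used a single cell line, and the labels number its lineages as replicates, so p-values below measure the spread between these lineages.

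EWSR1-FLI1 is the fusion transcription factor that drives Ewing sarcoma. It activates genes through GGAA repeats and represses a mesenchymal programme of matrix, adhesion and cytoskeletal genes, and cells in which fusion activity is low are known to be more migratory and richer in matrix. Vincristine binds tubulin, doxorubicin and etoposide act on topoisomerase II, and cyclophosphamide alkylates DNA after it is activated.

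Values were the authors' quantile-normalized counts, given here with no unit. Sequencing depth cannot be read from them, and no counting interval can be given. Treated columns share 1 total and DMSO and parental columns another, so levels set across the arms come from separate normalizations. The largest value a treated column can hold is 114345. The analysis used 14565 genes with a mean of at least 10 and log2 of the value plus 1. A gene was called higher or lower late when both libraries lay at least 1 log2 unit beyond the nearest of the 4 others, a distance called the gap. Over all 14565 genes the median late difference was -0.15, and after median-of-ratios rescaling it was -0.0019, so differences near these values carry no direction. Of the earlier treated libraries, R1 T3 lay far from every other, and tests that include it were repeated without it.

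The cell line's own genes were present in both late libraries. FLI1 had 1045 in R1 T9 and 1075 in R2 T10, against 1055, 1108, 1049 and 1086 in R4 T9, R5 T9, R5 T10 and R6 T10. EWSR1 had 2389 and 2438, against 2698, 2572, 2813 and 3094 in the same order. The FLI1 ranges overlapped, and both EWSR1 values lay under all 4 others by a gap of 0.077. That gap is smaller in size than the median late difference over all genes (-0.15), so it carries no direction. The 12 Ewing sarcoma markers summed to between 48299 and 55361 in the pair and between 80542 and 98034 in the 4 others. Most of that difference came from CCND1. Of the 11 markers kept, 6 lay below all 4 others by any gap and 1, ADGRG2, above them (3479 and 2889, against at most 2793). Only STEAP1 was called. In bulk RNA, fewer cells of a type and less RNA per cell cannot be told apart. CD99, the surface antigen used to identify these tumours, was at most 2.31 in any of the 73 libraries. CCND1, a cyclin that the fusion activates, had 21176 and 18942 in the pair and 59514, 44968, 41935 and 44968 in the others, a gap of 0.986 that was not called.

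EPB41L3, a membrane-cytoskeleton linker (chromosome 18, 5392381 to 5630700, minus strand, GRCh38, GENCODE v29), had 5113 in R1 T9 and 7685 in R2 T10, against 70.4, 25.5, 118 and 78.3 in R4 T9, R5 T9, R5 T10 and R6 T10. GPRC5A, an orphan receptor induced by retinoic acid (chromosome 12, 12890782 to 12917937, plus strand), had 4857 and 3642, against 34.5, 71.1, 17.9 and 16.1. Neither gene exceeded 298 in any other library of the series. FN1, the matrix glycoprotein fibronectin (chromosome 2, 215360440 to 215436172, minus strand), had 114345 in both late libraries, which is the largest value a treated column can hold, against 21988, 33714, 24358 and 17788. Its log2 difference of 2.26 is therefore capped. In the last earlier library of each lineage, EPB41L3 had 70.9 in R1 T7 and 38.1 in R2 T8, and GPRC5A had 26.7 and 109.6.

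**Figure D1:**
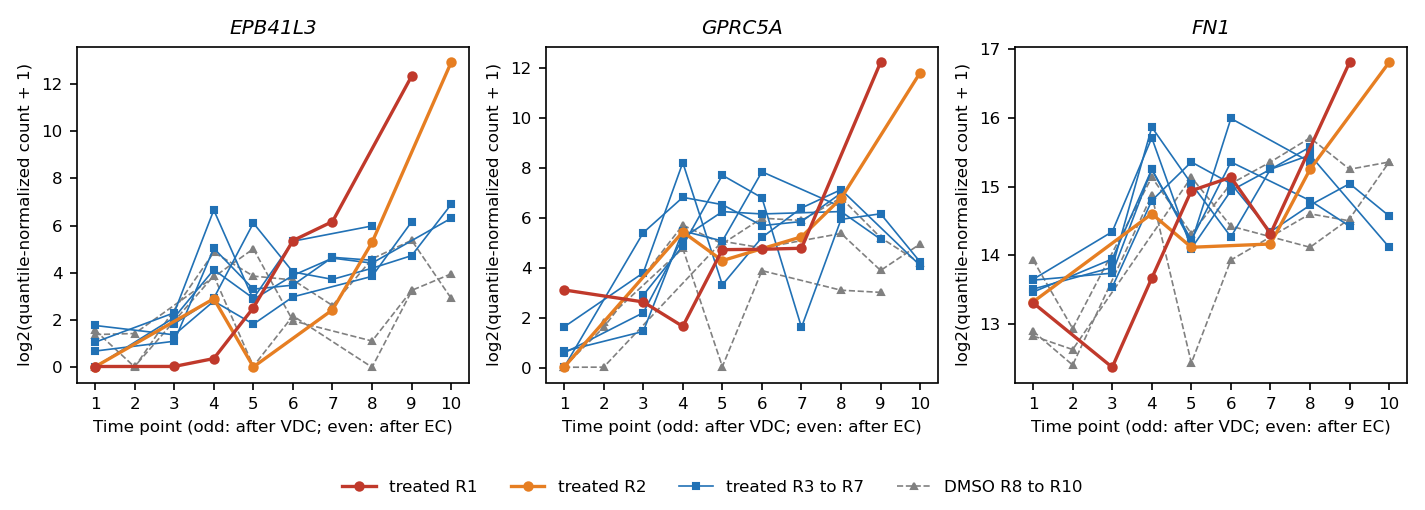
Values of EPB41L3, GPRC5A and FN1 (log2 of the quantile-normalized count plus 1) by time point, 1 line per lineage, with treated R1 and R2 in red and orange, treated R3 to R7 in blue and DMSO lineages dashed. R1 T9 and R2 T10 lie above every other library for all 3 genes, and lines join libraries across time points that were not sampled.

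The state was broad. Of 14565 genes, 662 were higher (4.55%) and 447 lower (3.07%) in both late libraries, and 127 and 23 of them had a gap of at least 3. With any gap counted, 2912 genes (20%) lay above and 5087 (34.9%) below all 4 others. Median-of-ratios scaling factors were 0.908 in R1 T9 and 0.901 in R2 T10, against 0.998 to 1.006 in the 4 others. Small gaps therefore carry no direction, and the any-gap counts are no measure of breadth. The median log2 difference was 2.55 for the higher genes and -2.17 for the lower ones. SH3BGRL3 was the last gene inside the threshold, with 1075 and 1135 against 426, 537, 303 and 395, and CNN3 the first outside it, with a gap of 0.998. Among lower genes SUGT1 was the last inside, at 2175 and 1996 against 4406, 4355, 5633 and 5185, and ZNF573 the first outside, with a gap of 0.999. Of the higher genes, 37 passed the filter on low values only through the pair, and 521 lay above all 71 other libraries. Of the lower genes, 186 lay below all 71. Without R1 T9, so that R2 T10 alone had to pass, 841 genes were lower.

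The pair resembled each other more than their own pasts. The root mean square log2 distance between R1 T9 and R2 T10 was 0.442, although they belong to different lineages and followed different drug combinations. Each lay 1.03 to 1.23 from the 4 other late libraries, which lay 0.508 to 0.661 from one another. R1 T9 lay 0.976 from R1 T7, and R2 T10 lay 1.09 from R2 T8. Over the 1176 pairs of treated libraries the median distance was 0.679, and 35 pairs were closer than R1 T9 and R2 T10. These distances include the genes that chose the pair and are given as a description.

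The 15 higher genes with the widest gap had varied roles. PDLIM3, an actin-binding protein of muscle, had 965 in R1 T9 and 1323 in R2 T10, against 0.387, 0.0104, 0.171 and 0.618 in R4 T9, R5 T9, R5 T10 and R6 T10. The hair keratin KRT34 had 7856 and 6745, against 8.24, 16.2, 4.87 and 3.57. PRKG1, a cGMP-dependent kinase of smooth muscle, had 1861 and 1904, against 0.907, 2.27, 0.635 and 4.27. For each of them the pair lay far above and the 4 others sat at or near the bottom of the scale. KCNA1, a neuronal potassium channel, had 1590 and 2288 and at most 3.70 in the 4 others. KIF5C, a neuronal kinesin, had 2970.0 and 3141 and at most 9.60. Others were the cytokine receptor IL31RA, the growth factors FGF5 and HBEGF, the prostaglandin transporter SLCO2A1, the prokineticin receptor PROKR2, ZPLD1, the keratin KRT75, the long non-coding RNA LINC01060, the matricellular protein CCN4 and the cadherin CDH13, with gaps from 6.03 (HBEGF) to 7.84 (IL31RA).

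Among the 10 lower genes with the widest gap, VCAN, the proteoglycan versican, was listed at each library's lowest value in R1 T9 and R2 T10 (0.0159 and 0.0293), against 42.2, 45.9, 22.4 and 28.9 in R4 T9, R5 T9, R5 T10 and R6 T10. SFRP1, a secreted WNT antagonist, was likewise at the lowest value in the pair, against 16.4, 16.2, 14.4 and 15.1. DCN, the small proteoglycan decorin, had 28.9 and 30.8, against 837, 419, 1110 and 708. SERTM1 and PI15 were also at the lowest value in both late libraries, and PHACTR2, GYPC, KIAA1210, ADARB2 and KIAA1549 had at most 11.3 there and at least 51.4 in the others. The groups cannot overlap for these genes, because the genes were chosen by their gap.

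**Figure D2:**
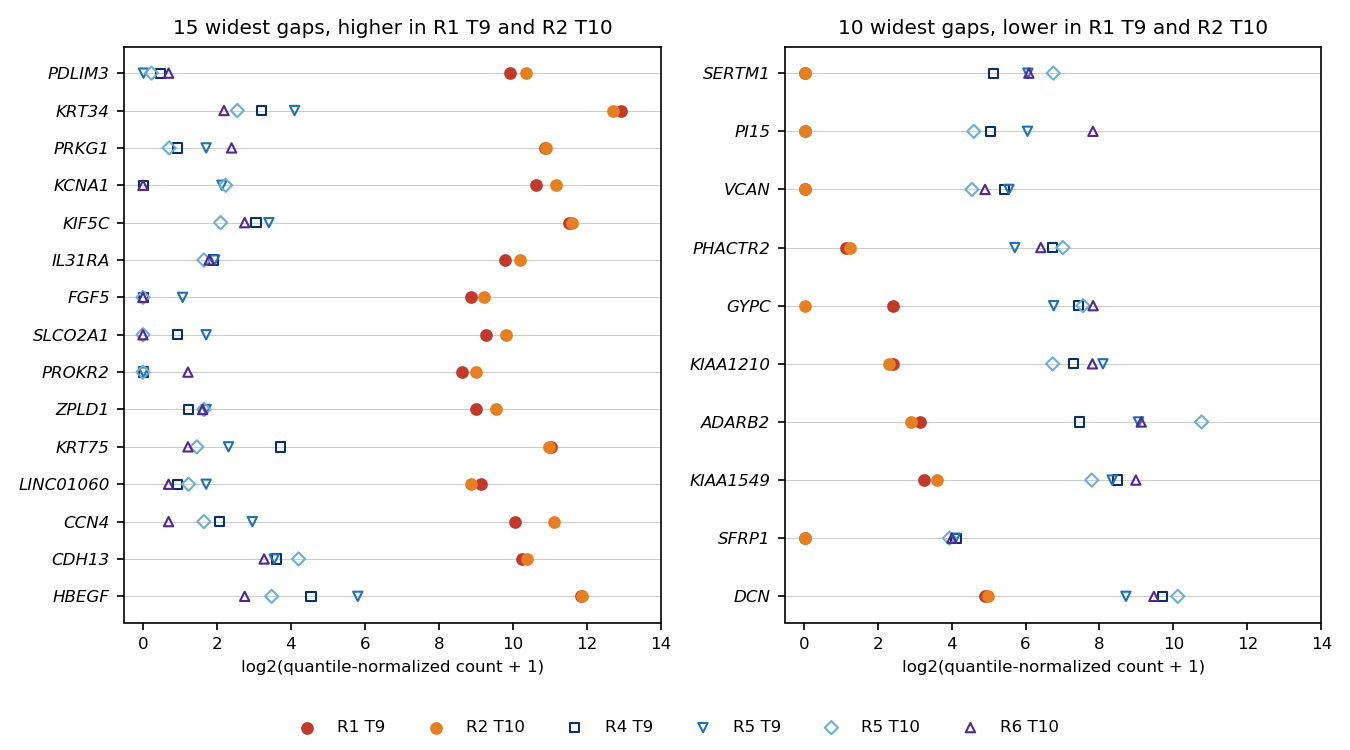
The 15 higher and 10 lower genes with the widest gap, as log2 of the quantile-normalized count plus 1 in R1 T9 and R2 T10 (filled circles) and in the 4 other late treated libraries (open symbols). The filled circles of each gene lie apart from all its open symbols, which the choice by gap requires.

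Because FOSB, FOSL1 and FOSL2, members of the AP-1 family, were among the higher genes, promoters were searched for TGANTCA, the AP-1 core motif, on both strands, in the RefSeq windows (GRCh38.p14) from 250 bases before to 50 bases after each start. A window was given for 493 of the 662 higher, 332 of the 447 lower and 11374 of all 14565 genes, under 80% in each case, so a comparison of the sets is void. TGANTCA was in 52 higher windows (10.5%), 15 lower windows (4.52%) and 526 windows of all genes (4.62%). GGAAGGAA, CACCTG and TATAAA were searched as well. TATAAA was in 9.53% of higher, 11.7% of lower and 6.11% of all windows, and GGAAGGAA in 4.67%, 4.22% and 3.28%. CACCTG was in 22.6% of lower and 17.8% of all windows, with a smaller share among higher windows. No TGANTCA lay in the windows of EPB41L3, FN1, PDLIM3, KRT34, PRKG1, KIF5C, FGF5, PROKR2, ZPLD1, KRT75, LINC01060 or HBEGF. The 3 windows below were chosen by the widest gap among higher genes with a TGANTCA match, but not every chromosome was included. Other higher genes with a match may therefore have a wider gap. Capitals mark the TGANTCA match, which begins at position -174, 25 and -45 from the start. LINC01411 is a long non-coding RNA (chr5:174336104-174336403, plus strand), DST the cytoskeletal linker dystonin (chr6:56954781-56955080, minus strand) and DCLK1 a microtubule-associated kinase (chr13:36131890-36132189, minus strand).
LINC01411: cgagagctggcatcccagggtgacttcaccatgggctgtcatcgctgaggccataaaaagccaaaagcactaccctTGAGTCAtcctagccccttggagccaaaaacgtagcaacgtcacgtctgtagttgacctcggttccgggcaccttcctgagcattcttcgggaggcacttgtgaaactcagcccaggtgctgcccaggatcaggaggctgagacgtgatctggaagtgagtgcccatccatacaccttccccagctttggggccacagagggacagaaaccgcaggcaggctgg
DST: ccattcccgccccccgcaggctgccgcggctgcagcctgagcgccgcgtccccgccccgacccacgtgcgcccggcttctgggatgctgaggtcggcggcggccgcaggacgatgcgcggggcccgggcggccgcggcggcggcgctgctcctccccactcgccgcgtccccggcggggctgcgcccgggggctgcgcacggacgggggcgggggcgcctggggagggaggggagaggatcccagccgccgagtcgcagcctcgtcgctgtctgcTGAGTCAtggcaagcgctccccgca
DCLK1: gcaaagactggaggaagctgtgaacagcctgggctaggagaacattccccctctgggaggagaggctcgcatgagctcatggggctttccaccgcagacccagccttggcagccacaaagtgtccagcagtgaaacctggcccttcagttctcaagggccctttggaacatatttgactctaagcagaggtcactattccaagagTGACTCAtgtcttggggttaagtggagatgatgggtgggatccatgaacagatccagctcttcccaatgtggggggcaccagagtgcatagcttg
LINC01411 had 199 in R1 T9 and 309 in R2 T10 and at most 4.53 in the 4 others. DST had 4430 and 4942, against 33.1, 54.0, 124 and 46.1, and DCLK1 had 719 and 786, against 26.5, 37.3, 24.1 and 11.9. A match to these letters does not show that a factor binds there.

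Many collagen and other matrix genes were higher, and a few were lower. The contrast that chose the pair also gives the list counts from here on, so they are descriptions beside the 4.55% higher and 3.07% lower of all genes. Of 22 collagen chain genes kept, 10 were higher and 2 lower, with a median log2 difference of 1.43, and of 31 other matrix and protease genes 9 were higher and 3 lower (median 0.89). COL15A1, a basement membrane collagen, had 499.8 in R1 T9 and 782 in R2 T10, against 1.35, 11.8, 4.48 and 6.12 in R4 T9, R5 T9, R5 T10 and R6 T10. COL1A1, a chain of fibrillar collagen I, had 20794 and 22349, against 4223, 4914, 2999 and 3828. TNC, the adhesion-modulating glycoprotein tenascin C, had 64974 and 90305, against 3192, 5773, 2358 and 1848. MXRA5 (17125 and 15809.5, against 90.2 to 648) and the matricellular protein POSTN (4888 and 9074, against 48.9 to 286) were also apart. In contrast, COL4A5, a basement membrane collagen IV chain, had 4.90 and 4.60, against 33.7 to 198, and LUM, the proteoglycan lumican, had 144 and 197, against 468 to 1300.5. Of 20 integrins and cadherins 5 were higher, among them ITGA5, a subunit of the fibronectin receptor, and 3 lower (median 0.52).

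Targets of EWSR1-FLI1 differed in both directions. Of 24 repressed genes 9 were higher and 1 lower (median 0.97). Of 31 activated genes 4 were higher and 3 lower (median -0.47). The repressed genes overlap the matrix lists in FN1, TNC, COL1A1 and COL3A1. NR0B1, a nuclear receptor activated by the fusion, had 997 and 840 in the pair, against 2635, 2764, 1526 and 2881 in R4 T9, R5 T9, R5 T10 and R6 T10, a gap of 0.61 that was not called. NPY1R, a neuropeptide Y receptor, had 1944 and 1546, against 5658 to 6826, and STEAP1, a surface metalloreductase, 287 and 261, against 652 to 1183. GLI1, a hedgehog effector that the fusion also activates, had 245 and 306 against 13.5 to 51.7.

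**Figure D3:**
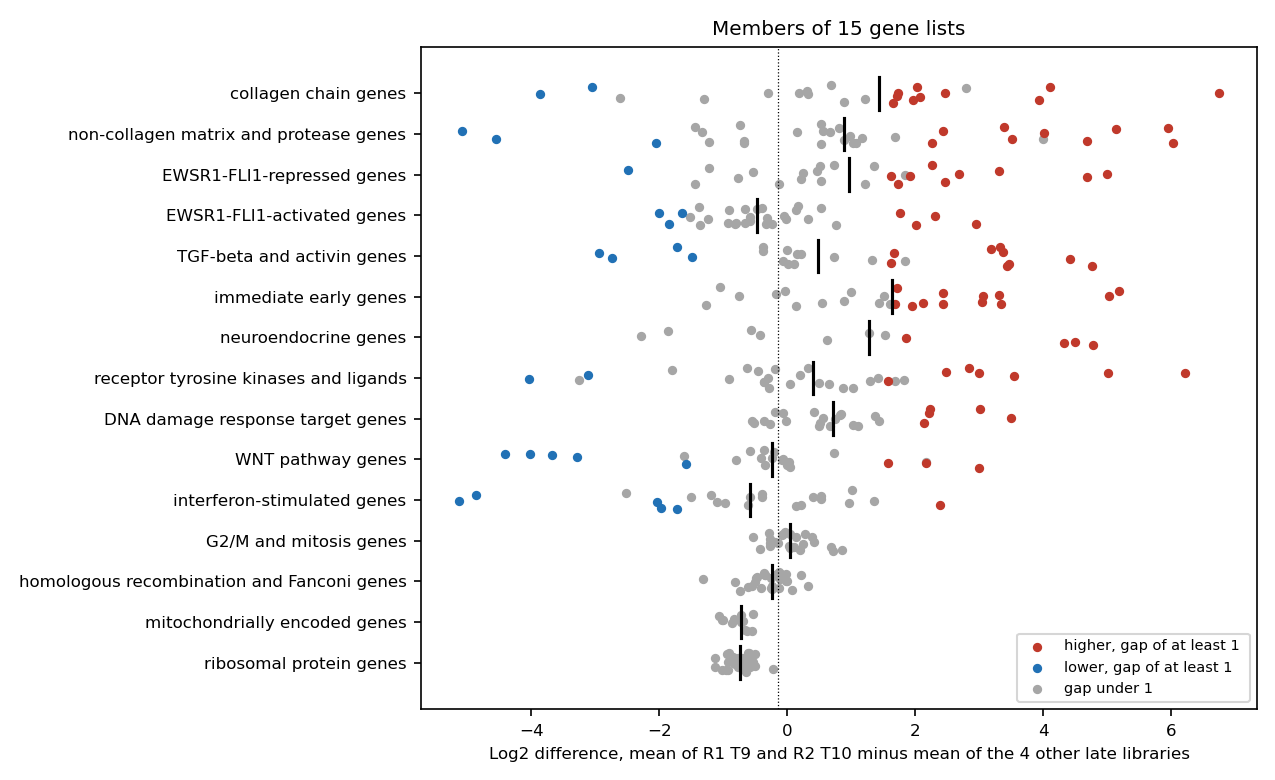
Log2 difference of each kept member of 15 gene lists, mean of R1 T9 and R2 T10 minus mean of the 4 other late treated libraries. Red and blue points have a gap of at least 1, black bars are list medians and the dotted line is the median of all genes (-0.15). The median is 1.64 for immediate early genes and -0.74 for ribosomal protein genes.

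Ligands and receptors of several signalling pathways differed too. TGF-beta signalling is a strong inducer of matrix genes, and of 24 TGF-beta and activin genes 9 were higher and 4 lower (median 0.47). The ligand TGFB2 had 5460.0 in R1 T9 and 5113 in R2 T10, against 149, 294, 168 and 191 in R4 T9, R5 T9, R5 T10 and R6 T10. Its receptor TGFBR1 had 6860.5 and 10116, against 510.0, 1035, 1123 and 717. INHBA, the activin A subunit, had 851 and 600.4, against 21.9 to 68.1. TGFB3, the coreceptor TGFBR3, ACVR2A and BMP6 were lower. Of 30 receptor tyrosine kinases and ligands 7 were higher and 2 lower (median 0.40): EGFR had 2003 and 3357, against 55.1, 166, 108 and 41.2, and HGF, the ligand of MET, had 319.5 and 394, against 1.32 to 10.2. PDGFA and KITLG were higher and the receptor PDGFRA lower. In the WNT list (23 genes, 3 higher, 5 lower, median -0.24), WNT5A, a non-canonical ligand, had 3295 and 3379, against 306 to 593, while the antagonist DKK2 had 806 and 455, against 6710 to 8266.

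Immediate early genes, which growth factors and stress induce rapidly, were higher in 12 of 24 cases, with none lower and a median of 1.64. ATF3, a stress-induced repressor, had 3258 in R1 T9 and 3962 in R2 T10, against 82.6, 136, 105 and 77.2 in R4 T9, R5 T9, R5 T10 and R6 T10. DUSP5, a nuclear ERK phosphatase, had 1639 and 1526, against 19.2 to 149. FOSL1, FOSL2, FOSB, EGR1, EGR3, IER2, IER3, DUSP1, NR4A2 and KLF6 were the others. Of 24 DNA damage response targets 5 were higher and none lower (median 0.71): the cell cycle inhibitor CDKN1A had 2857 and 3076, against 228, 597, 178 and 195, and the death receptor FAS 2309 and 1560.4, against 204 to 269.7. MDM2, a p53 target and inhibitor, was not higher, at 1726 and 1902, against 2158, 2009, 2069.8 and 2024. CDKN1A reached 10116 in a DMSO library, R9 T8, and 4992 in R4 T4, so its late level lay inside the range of the series. Among BCL2 family genes (16, 3 higher, none lower) were MCL1, an anti-apoptotic member, with 7394 and 9230.4, against 2668 to 3223, and the pro-apoptotic PMAIP1, with 501 and 655, against 26.9 to 82.1.

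Several neural, contractile and tubulin genes were higher. Of 23 neural adhesion and axon guidance genes 4 were higher and none lower (median 0.81), and of 11 neuroendocrine genes 4 were higher and none lower (median 1.27). NCAM1, a neural cell adhesion molecule, had 1134 in R1 T9 and 1175 in R2 T10, against 4.11, 191, 35.0 and 34.1 in R4 T9, R5 T9, R5 T10 and R6 T10. INSM1, a neuroendocrine transcription factor, had 426 and 728, against 7.31 to 27.5, and L1CAM 1968 and 2329.8, against 110.1 to 249. Of 21 YAP target and contractile genes 4 were higher and none lower (median 0.96), among them CCN2 (3561 and 5269, against 313 to 838) and the smooth muscle calponin CNN1 (1001 and 1699.5, against 43.7 to 259). CCN2 had 6010.3 in R3 T6, above both late libraries. Of 24 topoisomerases, tubulins and related genes 4 were higher and 1 lower: the beta-tubulin TUBB2B had 3654 and 3748, against 17.2, 66.6, 19.2 and 10.2, the tubulin-modifying enzyme TTLL7 715 and 777, against 16.8 to 161, and the microtubule-binding MAP2 3.65 and 0.0293, against 16.4 to 176. TOP2A, the target of doxorubicin and etoposide, had 6153 and 5692, against 7881, 8162, 8356 and 6329, and was not called.

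Drug transporters showed little that both late libraries shared. ABCB1, the efflux pump for vincristine, doxorubicin and etoposide, did not pass the filter, with 32.0 in R1 T9 and 29.1 in R2 T10, against 1.35, 23.3, 268 and 25.0 in R4 T9, R5 T9, R5 T10 and R6 T10. Its highest value in the series was in R5 T10. Of 15 drug transporters 1 was higher (SLCO4A1) and 1 lower (SLCO3A1). SLFN11, whose loss is known to protect cells from DNA-damaging drugs, had 2922 and 3344, against 3144, 4232, 3225 and 3179, and the ranges overlapped.

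Immune and epithelial lists held called genes in both directions. Of 23 interferon-stimulated genes 5 were lower and 1 (ISG20) higher (median -0.58): the RNA sensor IFIH1 had 11.6 in R1 T9 and 1.38 in R2 T10, against 208, 131, 246 and 196 in R4 T9, R5 T9, R5 T10 and R6 T10. CD274, which encodes PD-L1, had 415 and 381, against 1.35, 26.2, 10.9 and 8.69, while the immunoproteasome subunit PSMB8 had 11.6 and 15.1, against 53.4 to 93.3. The paired simple-epithelial keratins KRT8 and KRT18 were at 1.38 to 4.30 in the pair and 22.8 to 116 in the others, while the epithelial splicing factor ESRP1 was higher, with 174 and 171, against 50.7, 36.6, 54.1 and 67.7. No gene of the mitosis (24), DNA replication (29) or homologous recombination and Fanconi lists (31) was called, and MKI67, a proliferation marker, had 8412 and 7776, against 8738, 7664, 6465 and 6776.

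Lists that track RNA composition also moved with the pair. None of 30 ribosomal protein genes had a gap of 1, but 29 lay below all 4 other libraries (median -0.74, and -0.59 after median-of-ratios rescaling), and their summed value was 220837 to 249535 in the pair and 365867 to 464090 in the others. The 12 mitochondrially encoded genes kept had a median of -0.73, with 10 below all 4 others. Of 16 muscle and fibroblast markers the summed value was 57458 to 68082 in the pair and 17195 to 22328 in the others, most of it from COL1A1, COL3A1 and VIM. Of the 14 kept, 2 were higher (COL1A1 and COL3A1) and 3 lower (DCN, LUM and PDGFRA). MYOD1 and MYOG, which define skeletal muscle, were at or under 1.85 in these 6 libraries. Of 20 epithelial markers 12 were under 10 in both late libraries, EPCAM and CDH1 among them, and 12 were under 10 in all 4 others. Their sum was 27676 to 36409 in the pair and 19807 to 25372 in the others, nearly all of it from the tight junction gene CLDN1, with 35961 in R1 T9 and 27158 in R2 T10. The desmosome gene DSP had 117 and 75.2 in the pair, against 167 to 893. The 14 blood cell markers summed to 183 to 214 against 269 to 605, and the 11 endothelial markers to 65.6 to 83.3 against 68.8 to 148. The 12 Schwann and melanocyte markers summed to 359 to 506 against 147 to 328. The part of other cells or of RNA composition in the state was not tested.

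Over the 662 higher genes the median absolute difference between R1 T9 and R2 T10 was 0.21 log2 units, and 19 genes lay at least 1 apart. Over the 447 lower genes it was 0.39, and 76 lay at least 1 apart, against a median of 0.15 over all genes. R1 T9 alone lay at least 1 above the other 5 late libraries for 16 genes (0.11%) and below for 118 (0.81%). R2 T10 alone did so for 44 (0.302%) and 223 (1.53%). HKDC1, a hexokinase-like enzyme, led R1 T9 with 439.5, against 111 in R2 T10 and at most 5.47 in the 4 others. The receptor tyrosine kinase RET led R2 T10 with 182, against 35.5 in R1 T9 and 6.19 to 12.5 in the 4 others.

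The earlier course of these genes differed between the lineages. Across time points 1 to 8 the median of the 662 higher genes, relative to the 4 other late libraries, stayed between -0.85 and 0.58 in every treated library, against 2.48 in R1 T9 and 2.66 in R2 T10. R1 T7 lay at least 1 above every other treated library of its time point for 45 of the 662 genes (6.80%, against 0.714% of all genes), led by KRT34 (301) and MXRA5 (2299.7). The count did not climb steadily in R1, with 49 already in R1 T1 (7.40%, against 1.17%) and 3 in R1 T5 (0.453%, against 0.103%). R2 T8 did so for 6 (0.906%, against 0.172%). Other lineages had such libraries too: R7 T4 did so for 33 of the higher genes (4.98%, against 0.288%). R1 T7 was set against 4 others, R1 T1 and R2 T8 against 5 and R7 T4 against 6, so these counts are not strictly comparable. Of the 447 lower genes, R1 was already lowest of its time point by at least 1 for 86 at time point 6 (19.2%, against 2.78% of all genes) and 83 at time point 7 (18.6%, against 1.72% of all genes). R2 T8 was lowest for 2 (0.447%, against 0.179%). This too was seen in another lineage, as R7 T4 was lowest for 22 (4.92%, against 0.508%). VCAN and PHACTR2 had 1.19 and 2.34 in R1 T7 and 73.8 and 77.7 in R2 T8, so for both genes R1 was low before its last library and R2 was not. R1 T9 lay at least 1 above R1 T7 for 602 of the 662 genes (8.66% of all genes did so), and R2 T10 above R2 T8 for 641 (9.17%). These counts use the late values that chose the genes, and nothing is read from them.

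**Figure D4:**
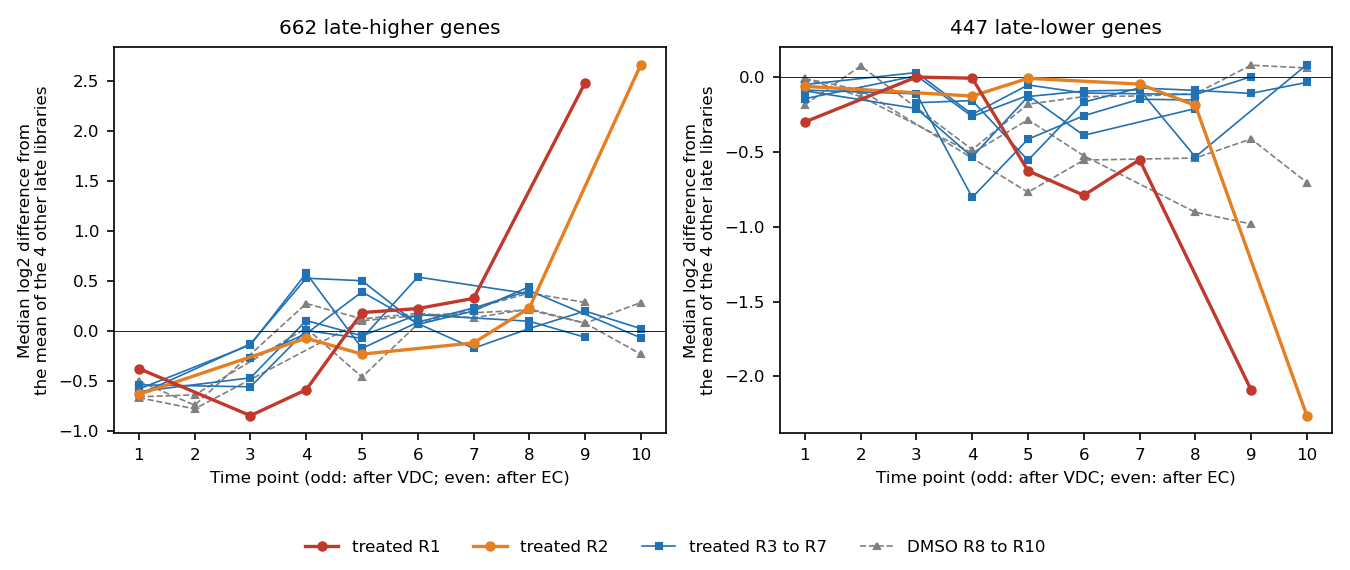
Median log2 difference of the 662 late-higher and 447 late-lower genes from the mean of the 4 other late libraries, by time point and lineage (R1 red, R2 orange, R3 to R7 blue, DMSO dashed). The late libraries of R1 and R2 stand at 2.48 and 2.66 for the higher genes. For the lower genes R1 stands at -0.63, -0.79 and -0.55 at time points 5, 6 and 7 and at -2.09 at time point 9. Earlier medians as low were not particular to R1, with -0.80 in R7 T4 and -0.90 in the DMSO library R9 T8, normalized apart.

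Whether R1 and R2 differed from R3 to R7 before the late libraries was tested in samples the choice of the pair did not use. Over time points 1 to 8, 0 genes were higher (0%) and 1 lower (0.00687%) in R1 and R2 by limma with Benjamini-Hochberg adjustment, while 1465 had an unadjusted p under 0.05. The gene was SLC6A15, a neuronal amino acid transporter, with lineage levels of 7.40 and 7.50 log2 units in R1 and R2, against 8.58, 8.79, 8.81, 8.60 and 8.66 in R3 to R7. The difference was -1.24 ± 0.080 (SE), with adjusted p = 0.00184 in limma, and it was not among the late genes. None of the 1109 late genes passed, and the median difference of the late-higher genes was -0.14, against 0.016 over all genes. EPB41L3 differed by -0.9996 ± 0.32 (SE, adjusted p = 0.357), GPRC5A by -0.63 ± 0.28 (0.503) and FN1 by -0.51 ± 0.098 (0.146), all from limma and none past the threshold. With lineage as a replicate block 153 genes passed, 24 higher and 129 lower, among them 31 late-higher and 20 late-lower genes on the lower side. Without R1 the count was 4 and without R3 or R4 it was 3. Without R2 it was 379, with R1 then a lone lineage assumed to vary like the others.

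At time points 7 and 8 alone, 0 genes passed in either direction (0%; limma, smallest adjusted p = 0.129), with 1039 genes at an unadjusted p under 0.05. Lineages R1, R3 and R4 had only 1 library each there, and R2, R5, R6 and R7 had 2 each. Among higher genes the smallest p was that of HR, a transcriptional corepressor, at 10.79 and 10.50 log2 units in R1 and R2, against 9.98, 9.94, 9.92, 9.96 and 9.76 in R3 to R7. Next were the neuropeptide gene CALCB and the late-higher axon guidance gene NAV2 (1.62 ± 0.27, SE, adjusted p = 0.53 in limma). Among lower genes it was that of TRHDE, a peptidase, followed by CSMD3 and the late-lower adhesion receptor gene ADGRB3 (-2.22 ± 0.37, SE, adjusted p = 0.53 in limma). Without R2, 45 genes passed, 17 higher and 28 lower, among them 4 late-higher genes on the higher side and 13 late-lower genes on the lower side, and without R5 1 gene passed.

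Many late-higher genes had already risen across the treated lineages over time points 1 to 8, which share no library with the late contrast. By slopes per lineage, 2334 genes rose (16%) and 2507 fell (17.2%) in the 7 treated lineages (limma, Benjamini-Hochberg). Of the 662 late-higher genes 352 rose (53.2%) and 35 fell (5.29%), with a median slope of 0.12 log2 units per time point against -0.0062 over all genes. Of the 625 that pass the filter without the pair 335 rose. EPB41L3 rose by 0.60 ± 0.095 (SE, adjusted p = 0.0024), GPRC5A by 0.66 ± 0.095 (0.00157) and FN1 by 0.24 ± 0.023 (0.000282) per time point, each in 7 of 7 treated lineages. The largest rises were those of POSTN (1.02 ± 0.12, SE), EGFR (0.93 ± 0.078), CHST9 (0.84 ± 0.13), the protease inhibitor TFPI2 (0.77 ± 0.11) and L1CAM (0.77 ± 0.085), with adjusted p up to 0.00195 in limma. POSTN, EGFR, TFPI2 and L1CAM were late-higher genes, and CHST9, a sulfotransferase, a late-lower one. The largest falls were those of WNT3 (-0.60 ± 0.057), the chromatin remodeller SMARCA1 (-0.43 ± 0.062), MIR34AHG (-0.39 ± 0.075), CCNA1 (-0.38 ± 0.040) and C2CD2 (-0.38 ± 0.053), of which SMARCA1 and C2CD2 were late-higher genes. Over time points 3 to 8 only 83 genes passed, 79 upward and 4 downward, 20 of the risers late-higher genes. With a common slope, an intercept per lineage and libraries as the unit, 3208 rose and 3884 fell. That fit leaves out the spread of slopes between lineages. Leaving out R2, R3, R4, R6 or R7 brought the total to between 2692 and 3177, and leaving out R5 brought it to 8069. R5 was the only treated lineage with no library at time point 1, and the part this played was not tested.

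The counts by list stand beside 16% of all genes rising and 17.2% falling in treated lineages, and 4.71% and 5.03% in DMSO lineages. Of the collagen chains, 17 of 22 rose and 2 fell in the treated lineages, as did 21 and 3 of 31 other matrix genes, 17 and 1 of 23 neural adhesion genes and 15 and 1 of 24 immediate early genes. Of the 24 EWSR1-FLI1-repressed genes 14 rose and none fell, and of the 31 activated genes 5 rose, a share near that of all genes, and 10 fell. Of 23 interferon-stimulated genes, 5 of which were lower in the late pair, 10 rose and 2 fell. Ribosomal protein genes likewise had 21 of 30 rising and none falling, while the mitochondrially encoded genes had 10 of 12 falling. DNA damage response targets had 2 rising and 8 falling of 24, and homologous recombination and Fanconi genes 12 falling of 31. In DMSO lineages 4 of 22 collagen chains, 11 of 31 other matrix genes, 10 of 23 neural adhesion genes, 8 of 24 immediate early genes and 5 of 24 DNA damage response targets rose, and none of these fell. All 12 mitochondrially encoded genes fell there. Over time points 3 to 8 no gene passed in DMSO lineages, so none of these DMSO calls remained (limma, 1696 genes at an unadjusted p under 0.05). In treated lineages only 79 of all 14565 genes rose and 4 fell over those time points. Most of the treated falls listed above therefore did not remain, and the treated rises were not counted by list there.

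The lower genes had no single earlier direction. Of the 447, 97 rose (21.7%) and 113 fell (25.3%) in treated slopes. KIAA1549 (0.70 ± 0.052, SE), PHACTR2 (0.63 ± 0.053), COL4A5 (0.66 ± 0.11) and KRT18 (0.57 ± 0.096) rose in 7 of 7 treated lineages (adjusted p from 0.000101 to 0.0032 in limma) and were then lower in both late libraries than in the 4 others. NPY1R fell (-0.10 ± 0.011, adjusted p = 0.000393 in limma), as did STEAP1. In the parental library, normalized apart from the treated ones, KIAA1549 had 7.92, VCAN 7.92 and KRT18 8.96.

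Lineages grown without drug changed as well. Over time points 1 to 8, 686 genes rose (4.71%) and 732 fell (5.03%) in R8 to R10 (limma, Benjamini-Hochberg). With no filter on low values 0 genes passed (limma, 5626 at an unadjusted p under 0.05). Of the late-higher genes 185 rose (27.9%) and 2 fell, and of the late-lower genes 19 rose and 51 fell. GPRC5A rose by 0.73 ± 0.13 (SE, adjusted p = 0.0361 in limma) and FN1 by 0.28 ± 0.023 (0.015) in 3 of 3 DMSO lineages, and EPB41L3 had a slope of 0.19 ± 0.12 that did not pass (0.307). The largest rises were those of CREB5, ANXA5, PRKD1, MAML2 and MMP1 (0.90 to 0.98 per time point), all late-higher genes. The largest falls were those of LINC00861, ZMAT1, WNT3, SLC22A16 and LCN12 (-0.48 to -0.45), none of them a late gene. With a common slope and libraries as the unit, which leaves out the spread of slopes between lineages, 2207 genes rose and 2730 fell. Without time points 1 and 2 no gene passed (1696 at an unadjusted p under 0.05), without R9 740 passed in all, and without R10 100 rose and 28 fell.

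**Figure D5:**
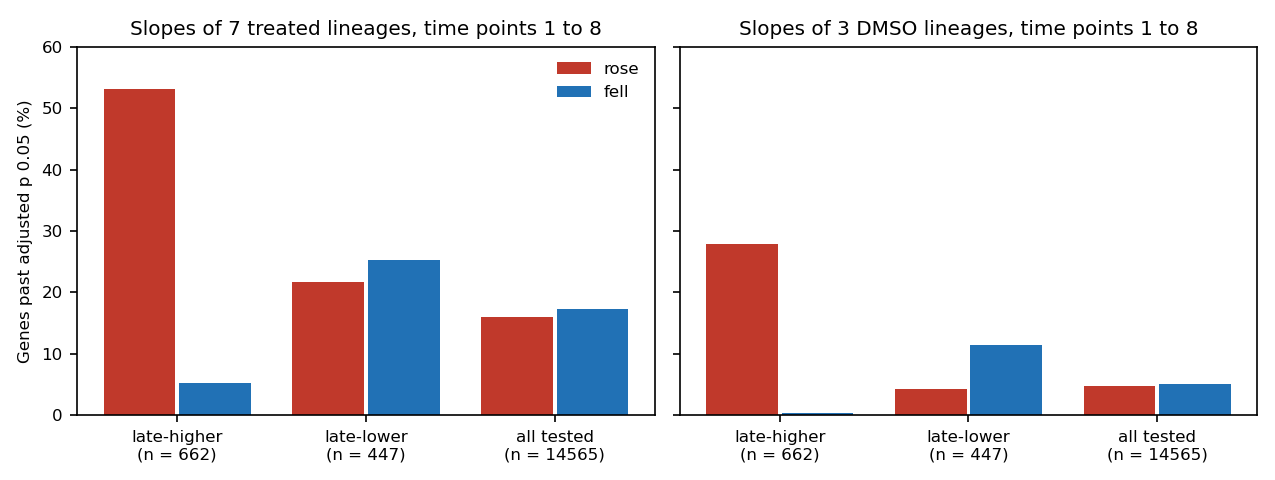
Percentage of the 662 late-higher, 447 late-lower and all 14565 genes that rose (red) or fell (blue) past an adjusted p of 0.05 (limma) over time points 1 to 8, in the 7 treated lineages and the 3 DMSO lineages. Late-higher genes rose in 53.2% of cases in treated and 27.9% in DMSO lineages, against 16% and 4.71% of all genes.

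No gene's slope in R1 and R2 differed from that in R3 to R7 past the threshold. The difference between the slopes passed for 0 genes in either direction (0%; limma, smallest adjusted p = 1.00), with 461 at an unadjusted p under 0.05. The smallest p among positive differences belonged to the helicase gene BRIP1 (0.051 and 0.019 per time point in R1 and R2, against -0.12 to -0.063 in R3 to R7), CACNA1C and H2AC11, and among negative ones to EMID1, FOXP2 and JCAD. None of these 6 was a late gene. Over time points 3 to 8, 9 genes passed, all upward.

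Some of the higher genes also had high values in late DMSO libraries, which were normalized apart from the treated ones. Of the 662, 160 lay at least 1 log2 unit above all 4 other late treated libraries in R9 T9, 118 in R10 T10 and 2 in R8 T10. By the median of the 5 late DMSO libraries 53 did so. The share of all genes was not counted, so nothing is read from these numbers. VGF, a neuroendocrine precursor, had 829 in R1 T9 and 1097 in R2 T10 and 5374 in the DMSO library R9 T9, and GDF6, a BMP ligand, 1245 and 1204 and 5532 in R9 T9. EPB41L3 (6.56 to 40.6) and GPRC5A (7.12 to 36.2) were low in all 5 late DMSO libraries, and FN1 had 23200.0 to 41936.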

How the data were processed

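RNA came from the Qiagen AllPrep kit, and STAR served for alignment and counting, per the labels' protocols. STAR, featureCounts and GRCh38 stand in the submitters' processing notes with no version. In the deposited table the values are a signal, counts quantile-normalized by the authors, for 36233 genes in 73 columns. The treated columns and the others were scaled apart, as the deposited values show, which fixes each library's distribution and caps its largest gene. Depth is unknown.

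Groups came from the labels. Log2 of the value plus 1 was used for genes with a mean of at least 10. The late contrast was described, with a gap of at least 1 log2 unit as the call. Lineage levels adjusted for time point, and least squares slopes per lineage, were tested on time points 1 to 8 with limma 3.58.1 (trend, R 4.3.3), at a Benjamini-Hochberg adjusted p under 0.05. The labels' lineage numbers tie libraries to the same culture. The mean correlation of deviations from the group means was 0.0783 within lineages (112 pairs) and -0.0111 between them (679 pairs). Fits were tested on simulated data. A level difference of 1 over time points 1 to 8 was recovered for 91.5% of 200 changed genes among 14565, with 17 false calls. At time points 7 and 8 it was recovered for 47.5%, with 2 false calls. A slope of 0.2 was recovered for 87.5% in treated lineages (8 false calls) and 60.5% in DMSO lineages (6). A slope difference of 0.2 was recovered for 44.5% (6 false calls). The simulated libraries varied independently, with no lineage effect. Recovery can therefore be lower where lineages differ, as in the real data.

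The genes and the 36 gene lists were chosen with earlier results of these data known. Named genes were the 15 higher and 10 lower with the widest gap, up to 4 called genes a list, EPB41L3, GPRC5A, FN1, EWSR1, FLI1, NR0B1, TOP2A, ABCB1, SLFN11, CDKN1A, MDM2 and MKI67, and in each test the 5 largest called estimates upward and downward, replaced by the 3 genes of smallest p where a test called none. A few others are named as list members. Alternatives were other pseudocounts, filters and scaling, other comparison libraries, robust variance, a replicate block, fewer time points and leaving out single libraries or lineages. For slopes the block was an intercept per lineage, with libraries as the unit. Plots used matplotlib 3.10.9 (Python 3.11.15).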

Additional observations from a re-analysis of the deposited data

Results flagged for a closer look

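Among the 114 named genes, 9 (7.89%) had 1 of the 4 other late treated libraries far from the remaining 3, by the ratio of its gap to the range of the 4 values. Chance flags about 1 in 20 such groups. R5 T9 was highest for FGF5 (1.10, the others at most 0.00542), SLFN11 (4232, the others 3144 to 3225) and SLCO3A1 (675.5, the others 613 to 615). R5 T10 was lowest for NR0B1 (1526, the others 2635 to 2881), the adhesion molecule ICAM1 (55.4, the others 165 to 187) and the glucose transporter SLC2A3 (76.1, the others 134 to 144). R6 T10 was highest for PROKR2 (1.32, the others at most 0.0104) and lowest for DUSP1 (272, the others 497 to 552). R4 T9 was lowest for INSM1 (7.31, the others 25.7 to 27.5).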

How the results depend on the processing

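The late counts of 662 higher and 447 lower genes moved past 1.5 times with a pseudocount of 16 (227 lower), with no filter on low values (1135 higher) and with any gap (2912 and 5087). Leaving out single late libraries gave 693 to 809 higher and 489 to 841 lower. Rescaling kept all 662 higher genes and 356 of the lower ones. For R1 and R2 against R3 to R7 over time points 1 to 8, the count of 1 became 15 with no filter, 6 with robust variance, 153 with the replicate block, 8 over time points 3 to 8, 3 without R1 T3 (chosen after seeing the data) and 1 to 379 leaving out single lineages. At time points 7 and 8 it was 0 to 45 leaving out single lineages. Treated slopes gave 4841 genes, 83 over time points 3 to 8, 7092 with libraries as the unit and 2692 to 8069 leaving out single lineages. The slope difference gave 2 with no filter and 9 over time points 3 to 8. DMSO slopes gave 1418 genes, 0 with no filter (limma, 5626 at an unadjusted p under 0.05) and 0 over time points 3 to 8 (1696). They gave 4937 with libraries as the unit and 128 to 1755 leaving out single lineages. Over time points 3 to 8 the DMSO slopes of MAML2 (-0.071), ZMAT1 (0.13) and SLC22A16 (0.41) changed sign. The cause was not tested. Among single genes, 908 values kept their direction and side of the threshold or moved by less than the replicate spread, 51 moved, 44 lost the call and 4 gained it.

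The pair has 1 library per lineage, so nothing measures the spread within either late culture. Ceiling values cap FN1, and genes at a library's lowest value carry no fold. Depth is unknown, so no counting limit can be set.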

Other observations

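Counts of further lists follow, beside 4.55% of all genes higher and 3.07% lower in the late pair than in the 4 other late treated libraries. Of 22 hypoxia and glycolysis genes 4 were higher (NDRG1, P4HA2, SLC2A3 and HK1) and none lower, with a median of 0.49. Of 27 genes of the ATF4 and unfolded protein response 2 were higher (DDIT3 and SESN2), a share near that of all genes, and none lower, with a median of 0.64. TRIB3, a pseudokinase induced by ATF4, had 3885 in R1 T9, 1348 in R2 T10 and 296 to 999 in the 4 others. The fatty acid binding protein gene FABP3 had 520.4 in R1 T9, 1708 in R2 T10 and 51.2 to 69.0 in the 4 others. WWC1, a regulator of the Hippo pathway, was at the library's lowest value in R1 T9, at 11.3 in R2 T10 and at 11.2 to 83.5 in the others. NRSN1, a neuronal vesicle protein gene, was at the lowest value in R2 T10, at 10.2 in R1 T9 and at 9.05 to 32.6 in the others.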
